A study of Mus musculus with 4 samples.

Results

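The C-type lectin (Clec) family was taken as every gene of the feature lists whose symbol starts with Clec and a digit, matched across libraries by Ensembl identifier. The rule found 31 genes, of which 30 were listed in all 4 libraries, out of 30406 genes listed in all 4. The remaining gene, Clec2f, was listed only in the anti-PD1 libraries. Of the 30 shared members, 20 had at least 50 UMIs (unique molecular identifiers, each standing for 1 captured RNA molecule) over the 4 libraries, 10 had fewer, and 2 of these 10, Clec3a and Clec4f, had none.

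C-type lectins share a carbohydrate-recognition fold, and in mouse myeloid cells most of the Clec receptors sit at the surface as sensors of glycans, lipids or dead-cell material. Receptors such as Clec4e and Clec4n signal through the Fc receptor gamma chain and the kinase Syk, whereas others, such as Clec4a2 and Clec12a, carry an inhibitory motif that recruits phosphatases. A separate branch, the Clec2 genes, encodes ligands that are read by Klrb1 receptors on NK cells and some T cells.

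The samples were CD45.2+ immune cells sorted from brains of mice bearing GL261 tumours, GL261 being a mouse glioma line, here injected into the brain. There were 4 groups of 1 library each. The KO untreated group came from IFNaR-/- mice, which lack the type I interferon receptor, and the WT untreated group from WT mice, both sorted 20 days after tumour injection. The KO anti-PD1 and WT anti-PD1 groups had the same genotypes, received an antibody against the T cell checkpoint receptor PD-1 at 200 ug per mouse on days 7, 11, 15 and 19, and were sorted on day 25. Per the labels, suspensions were pooled before sorting, and for both anti-PD1 sorts CD3+ cells were mixed 1:1 with CD3- cells. The number of mice in a pool, their strain and their age are not given in the sources used here. With 1 library per group there was no replicate check, no test was possible, and all intervals are exact 95% intervals that cover counting error only.

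The libraries held 3705 to 9530 cell barcodes and 32410040 to 94732545 UMIs, and 2810 to 9464 cells passed the filters. The median kept cell had 9534 UMIs in KO untreated, 7305.5 in WT untreated, 5180.5 in KO anti-PD1 and 8810.5 in WT anti-PD1. Ifnar1, a subunit gene of the deleted receptor, was at 129 CPM (UMIs of a gene per 1000000 UMIs of the gate or library) in KO untreated against 96.0 CPM in WT untreated, and at 147 CPM in KO anti-PD1 against 77.3 CPM in WT anti-PD1, so its RNA did not separate the genotypes; which part of the gene was deleted is not given in the sources used here. The interferon-stimulated gene Isg15 did: 92.1 CPM in KO untreated against 964 CPM in WT untreated, and 57.3 CPM in KO anti-PD1 against 1033 CPM in WT anti-PD1. The anti-PD1 libraries did not resemble each other technically. UMIs of T cell receptor variable segments stood to those of constant segments at 0.0962 in KO anti-PD1 and 1.91 in WT anti-PD1, with 0.0151 in KO untreated and 0.0179 in WT untreated, although the labels name 1 kit for all libraries. In the monocyte/macrophage cells of the anti-PD1 pair the median log2 KO/WT was -0.07 for genes with under 1 kb of intron and 0.46 for genes with over 100 kb, against -0.05 and 0.02 in the untreated pair. Genotype and library make-up therefore cannot be told apart in the anti-PD1 pair. The anti-PD1 libraries shared 95 cell barcodes and the untreated libraries 3.

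Cells were assigned to lineages by raw marker gates. A cell joined the gate with the most of 8 markers detected, with at least 3 detected and no tie, and no gate used a Clec gene. The monocyte/macrophage gate held 1080 cells in KO untreated, 1958 in WT untreated, 3498 in KO anti-PD1 and 6037 in WT anti-PD1, and the microglia gate 277, 421, 2012 and 1141 in the same order. The dendritic gates were small: cDC1 held 65, 34, 25 and 32 cells and cDC2 114, 63, 41 and 38. T gates held only 864 cells in KO anti-PD1 and 736 in WT anti-PD1, although the labels describe an equal mix of CD3+ and CD3- cells. Gates with fewer than 50 cells in a library were described but not compared.

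Of the 31 members, 23 lie on mouse chromosome 6 (GRCm38, GENCODE vM21 annotation), and 20 of these in 2 groups of neighbours. The Clec4 group spans chr6:122921848-123289870 and holds 9 genes, Clec4a1, Clec4a3, Clec4a4, Clec4b1, Clec4a2, Clec4b2, Clec4n, Clec4d and Clec4e. The other spans chr6:128662385-129452000 and holds 11, among them Clec2d, Clec2i, Clec12a, Clec1b and Clec9a. Neighbours can share reads. Between the longest coding transcripts, Clec4a2 and Clec4b1 were 96.3% identical over 436 bases, and Clec2g and Clec2i 90.2% identical over 2264 bases. Clec2d was 88.2% identical to Clec2g over 832 bases and 85.4% to Clec2i over 835 bases. Clec1b and Clec9a overlap by 474 bases on the same strand. Counts of Clec4a2, Clec4b1, Clec4a4, Clec2g, Clec2i and Clec2d, and those of Clec1b and Clec9a where they overlap, are therefore uncertain.

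Because the KO mice lack the type I interferon receptor, the promoters of members were searched for the core of the interferon-stimulated response element. This core is GAAA, any 2 bases and GAAA again, and both strands were searched. RefSeq promoters of 300 bases (GRCm38.p6) were available for 24 of the 31 members, and 3 of the 24 held a match, Clec2d, Clec4b1 and Clec4d, against 3.44% of all 32851 promoters. Their sequences are shown from 250 bases before to 30 bases after the annotated start on the plus strand, with the matched bases in capitals, because these are the members whose start region holds the letters of an element that interferon signalling uses. The Clec2d match reads on the plus strand and the other two on the minus strand. They lie at chr6:129180365-129180644 (Clec2d), chr6:123049712-123049991 (Clec4b1) and chr6:123261857-123262136 (Clec4d). The Clec2d match begins 189 bases before the start, the Clec4b1 match 75 bases before it, and the Clec4d match at the start itself.
Clec2d: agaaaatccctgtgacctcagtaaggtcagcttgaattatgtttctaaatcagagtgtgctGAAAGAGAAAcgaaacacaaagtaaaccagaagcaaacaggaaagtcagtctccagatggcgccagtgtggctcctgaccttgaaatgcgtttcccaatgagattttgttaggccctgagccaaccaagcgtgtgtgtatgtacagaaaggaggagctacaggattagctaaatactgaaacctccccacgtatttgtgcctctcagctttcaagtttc
Clec4b1: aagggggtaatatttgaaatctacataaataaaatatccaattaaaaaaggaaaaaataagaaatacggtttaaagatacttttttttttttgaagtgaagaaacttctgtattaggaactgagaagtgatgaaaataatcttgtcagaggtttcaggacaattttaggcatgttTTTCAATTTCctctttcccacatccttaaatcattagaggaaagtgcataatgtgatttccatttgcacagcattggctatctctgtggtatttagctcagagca
Clec4d: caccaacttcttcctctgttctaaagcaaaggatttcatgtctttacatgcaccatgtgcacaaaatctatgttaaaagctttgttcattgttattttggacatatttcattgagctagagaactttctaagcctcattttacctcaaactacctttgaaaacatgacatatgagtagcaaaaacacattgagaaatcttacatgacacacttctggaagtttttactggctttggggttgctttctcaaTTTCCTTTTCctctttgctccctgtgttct
A match is a description of the letters and not a binding site. The levels of these 3 genes in cells with and without the type I interferon receptor are given with the monocyte/macrophage results.

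The lineages differed in which Clec genes were highest. Neutrophils, with 77 and 71 gated cells in KO and WT untreated but only 4 and 2 in KO and WT anti-PD1, were in the untreated libraries highest for the paired activating receptors Clec4d and Clec4e. Clec4e is a receptor for mycobacterial cord factor and dead-cell material. Clec4d was at 873 CPM in KO untreated neutrophils against 614 CPM in WT untreated neutrophils, and Clec4e at 640 CPM against 764 CPM. Mast cells and basophils also held Clec4e, with 407 CPM in KO untreated and 481 CPM in WT untreated, where it was the highest member. In the monocyte/macrophage gate Clec4a3, a receptor of the Clec4a branch, led in KO untreated (276 CPM), WT untreated (194 CPM) and KO anti-PD1 (135 CPM). Clec4n, which binds fungal mannans, led in WT anti-PD1 (361 CPM). The lead of Clec4a3 was narrow in WT untreated, over Clec4e at 187 CPM, and in KO anti-PD1, over Clec4n at 132 CPM. These 2 leads are not read as an order.

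Among untreated dendritic cells the subsets differed in the endocytic receptors Clec9a and Clec10a. Clec9a, which binds actin filaments of damaged cells, was at 214 CPM in KO untreated cDC1 and 198 CPM in WT untreated cDC1, and had a UMI in 72.3% (interval 59.8 to 82.7) and 73.5% (55.6 to 87.1) of those cells. In T gate cells, which should lack it, Clec9a had a UMI in 0.622% of KO untreated and 0.545% of WT untreated cells, at a median of 9489 and 8759 UMIs against 16707 and 16324.5 in cDC1. In the anti-PD1 libraries the cDC1 gates held Clec9a in only 20.0% of 25 KO cells and 15.6% of 32 WT cells, and C1qa, C1qb and C1qc together reached 7868 and 18860 CPM there, against 160 and 1137 CPM in KO and WT untreated cDC1. These 2 gates go against their name and are called by their rule only.

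Clec10a, a galactose-type lectin of macrophages and dendritic cells, was at 369 CPM in KO untreated cDC2 and 123 CPM in WT untreated cDC2. It was at 395 CPM in KO untreated pDC and 303 CPM in WT untreated pDC, where it was the highest member, and at 281 CPM in KO anti-PD1 cDC2 and 75.2 CPM in WT anti-PD1 cDC2. Clec12a, an inhibitory receptor for uric acid crystals, was spread more widely: in the untreated libraries it was at 135 CPM (KO) and 102 CPM (WT) in cDC1, 103 and 83.8 CPM in pDC, 91.4 and 116 CPM in neutrophils and 90.3 and 88.7 CPM in the monocyte/macrophage gate. The cDC1, pDC and neutrophil intervals overlapped within each library, so these lineages could not be ordered.

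The Clec2 ligands were found in lymphoid, dendritic and other gates. Clec2d, the ligand of the inhibitory receptor Klrb1b, was found in every gate with at least 20 cells and was the highest member in the T, NK and B gates. In T cells it was at 82.4 CPM in KO untreated and 87.0 CPM in WT untreated, and at 163 CPM in KO anti-PD1 and 161 CPM in WT anti-PD1. Its highest level in every library was in migratory dendritic cells, although the interval there overlapped that of the next gate, with 197 CPM in KO untreated, 216 CPM in WT untreated, 219 CPM in KO anti-PD1 and 210 CPM in WT anti-PD1. Clec2i, a ligand of Klrb1 receptors, reached 83.3 CPM in KO untreated pDC and 109 CPM in WT untreated pDC, and 57.4 CPM and 47.9 CPM in NK cells of the same libraries.

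**Figure D1:**
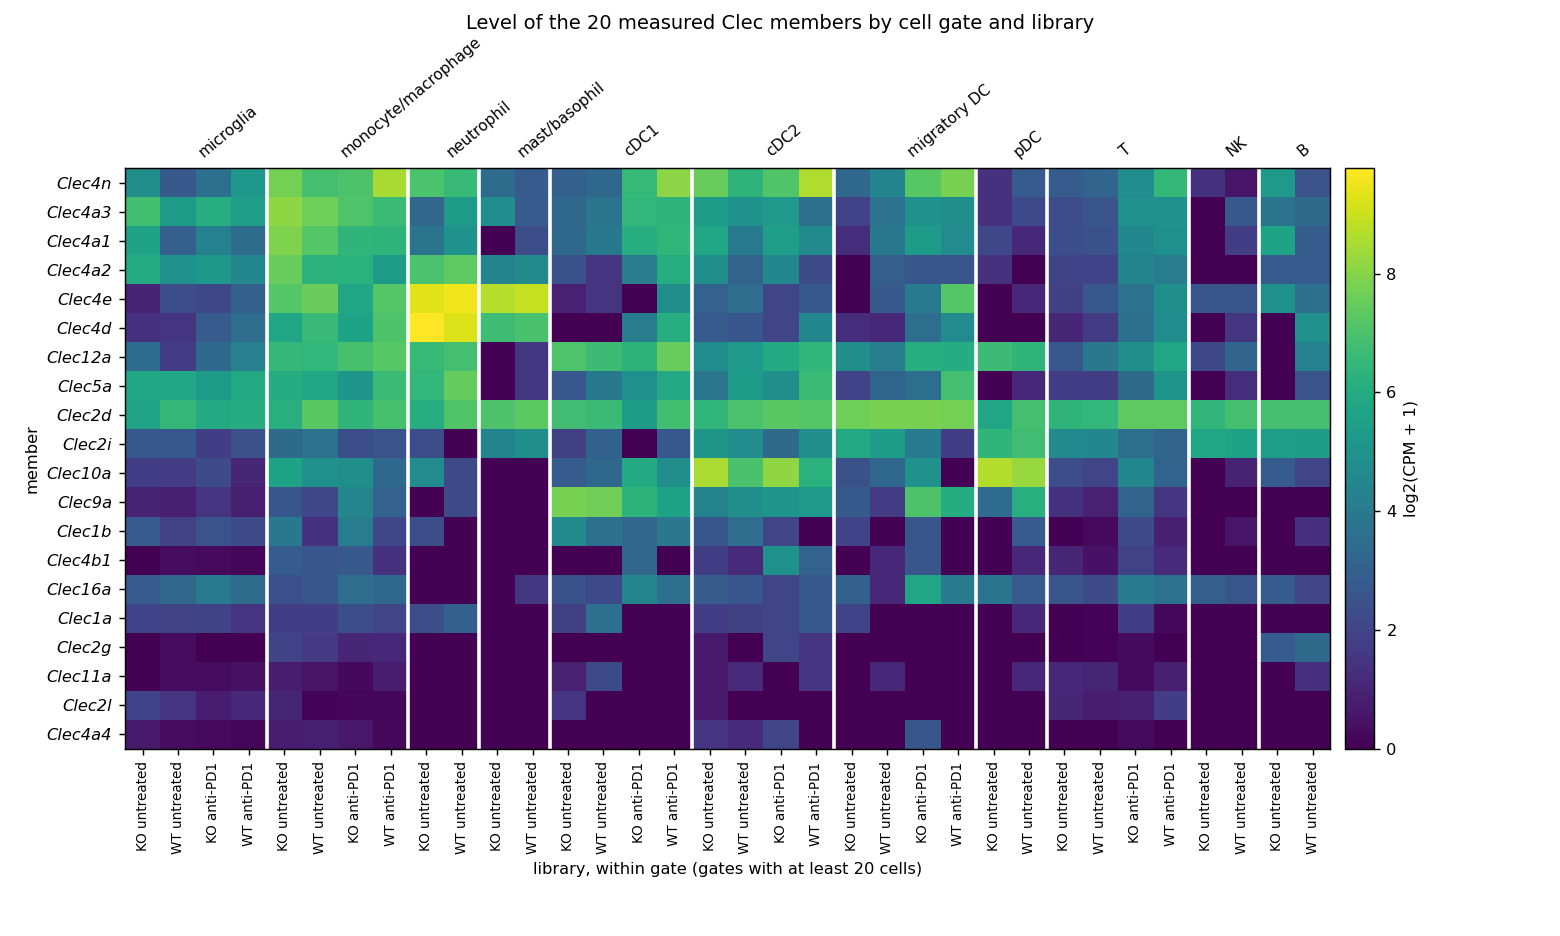
Level of the 20 members with at least 50 UMIs over the 4 libraries (rows) in each gate and library with at least 20 cells (columns, KO left of WT), colour giving log2(CPM + 1). Clec4e and Clec4d are brightest in the neutrophil columns, Clec9a in the untreated cDC1 columns, Clec10a in the cDC2 and pDC columns, and the Clec2d row is filled in all gates.

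The other members were low. Clec16a, an endosomal and autophagy gene rather than a surface lectin, was at 4.24 to 10.3 CPM in the monocyte/macrophage gates and 6.06 to 15.1 CPM in the microglia gates. Over the 4 libraries Clec11a, a secreted growth factor, had 120 UMIs, Clec2l 119 and Clec4a4 70. Clec12b had 39 UMIs, Clec3b 25, Clec4g 21, Clec2e 20, Clec4b2 and Clec18a 8 each, and Clec14a and Clec2h 2 each. Clec4f, known from liver Kupffer cells, and Clec3a, known from cartilage, had 0 UMIs.

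Microglia held far less Clec RNA than monocytes and macrophages of the same library. The family summed to 398 CPM in microglia against 1429 CPM in monocytes and macrophages in KO untreated, to 261 against 1175 CPM in WT untreated, to 285 against 859 CPM in KO anti-PD1, and to 294 against 1269 CPM in WT anti-PD1. No measured member was at least 2-fold higher in microglia, against 12.1%, 16.2%, 13.1% and 11.1% of all genes, and 11 of 15, 11 of 14, 11 of 16 and 10 of 17 were at least 2-fold lower, in that order of libraries. Of all genes measured, 9.02%, 10.5%, 8.05% and 9.08% were as much lower. For Clec4e the microglia level was 0.66%, 2.12%, 6.23% and 4.85% of the monocyte/macrophage level.

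Clec5a, Clec2d and Clec16a were closer in level between the gates. Clec5a, an activating receptor that signals through the adaptor Tyrobp, was at 86.4% of the monocyte/macrophage level in KO untreated, 103% in WT untreated, 113% in KO anti-PD1 and 59.5% in WT anti-PD1. Clec2d was at 71.4%, 58.0%, 73.9% and 52.7%. Clec4a2, an inhibitory receptor of the Clec4a branch, was in between at 34.8%, 39.4%, 48.9% and 56.7%, at least 2-fold lower in 3 of the 4 libraries. Clec16a was at 143%, 172%, 146% and 116%, the only one of the members measured in all 4 libraries that was above 100% in each, although the intervals of KO untreated and WT anti-PD1 reached below 100%. As a measure of RNA that cells of the same library share, T gate cells held Clec4e at 1.83% and 2.80% of the monocyte/macrophage level in KO and WT untreated, and at 21.2% and 19.2% in KO and WT anti-PD1. In both anti-PD1 libraries the microglia percents of Clec4e, Clec4d, Clec12a, Clec4n, Clec4a1, Clec10a, Clec9a and Clec4b1 were below those of T cells, so the levels of these members in anti-PD1 microglia or T cells are given as values and are not read as expression.

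**Figure D2:**
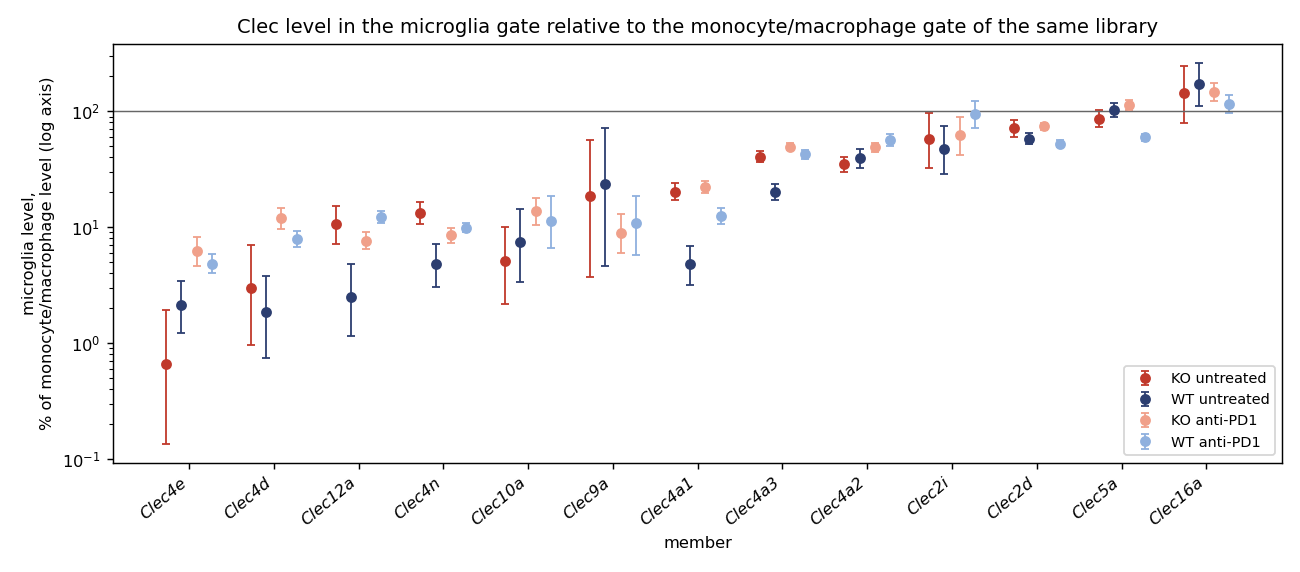
Level in the microglia gate as a percent of the level in the monocyte/macrophage gate of the same library (log axis), for 13 of the 14 members measured in both gates of all 4 libraries (Clec4b1, with 0 UMIs in KO untreated microglia, cannot be drawn on a log axis), with points per library and bars for counting intervals. Clec4e, Clec4d, Clec12a and Clec4n lie at or below 13.2%, the Clec4a genes between 4.77% and 56.7%, and Clec2d, Clec5a and Clec16a at 52.7% or above.

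Within the monocyte/macrophage gate, cells were divided by C1q, complement genes that mark macrophages: C1q-positive cells had at least 2 of C1qa, C1qb and C1qc. Their share was 65.6% in KO untreated against 44.7% in WT untreated, and 93.0% in KO anti-PD1 against 84.9% in WT anti-PD1. Every KO/WT value of the whole gate therefore also carries this difference in make-up. T gate cells held C1q RNA too, at 3316 CPM in KO anti-PD1 and 6024 CPM in WT anti-PD1. In KO and WT untreated they held 288 and 264 CPM. C1q-negative cells were shallower, with a median of 3421 UMIs against 6044 in KO anti-PD1 and 6958.5 against 9913 in WT anti-PD1. The anti-PD1 classes are thus named by their rule only. The part of shared RNA and depth in them was not tested. Clec4e and Clec10a were on the C1q-negative side in all libraries. Clec4e was at 104 CPM in C1q-positive and 251 CPM in C1q-negative cells of KO untreated, 135 and 245 CPM in WT untreated, 50.9 and 118 CPM in KO anti-PD1, and 131 and 268 CPM in WT anti-PD1. Clec10a was at 34.1 and 91.5 CPM in KO untreated, 18.0 and 43.6 CPM in WT untreated, 25.3 and 92.4 CPM in KO anti-PD1, and 8.79 and 13 CPM in WT anti-PD1.

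Clec4n was higher in C1q-positive cells in 3 of the 4 libraries, and Clec1b in the KO libraries and WT anti-PD1. Clec4n was 1.98-fold (1.78 to 2.21) higher in C1q-positive cells in KO untreated, 2.50-fold (2.25 to 2.78) in WT untreated and 2.37-fold (1.80 to 3.19) in KO anti-PD1, but 1.02-fold (0.98 to 1.07) in WT anti-PD1. Clec1b was 4.04-fold (2.38 to 7.39) higher in C1q-positive cells of KO untreated, with 157 against 15 UMIs. In KO anti-PD1 only 2 of its UMIs came from C1q-negative cells, against 399 from C1q-positive cells, a ratio of 7.79 with a counting interval of 2.14 to 64.5. Clec1b was at 1.68 CPM in C1q-positive against 1.76 CPM in C1q-negative cells of WT untreated, from 14 and 13 UMIs, and 1.84-fold (1.03 to 3.62) higher in C1q-positive cells of WT anti-PD1. Against the background of all genes, 2 of 15 members were at least 2-fold higher in C1q-positive cells of KO untreated (3.57% of genes) and 3 lower (2.91%), the lower ones being Clec10a, Clec4e and Clec4d. In WT untreated 1 of 14 was higher (4.93%) and 1 lower (2.99%), in KO anti-PD1 3 of 16 were higher (8.77%) and 4 lower (3.52%), and in WT anti-PD1 0 of 17 were higher (3.95%) and 1 lower (1.04%). The KO anti-PD1 classes were unequal, with 23007144 UMIs in C1q-positive and 897915 in C1q-negative cells. Of the higher members there, Clec4b1 had 132 against 1 UMIs, with an interval of 0.91 to 205 that includes equality. Of the lower ones, Clec2i and Clec1a had only 9 and 10 UMIs in C1q-negative cells.

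KO against WT monocytes and macrophages differed for single members rather than for the family as a whole. In the untreated pair, 2 of 17 measured members (at least 50 UMIs in the pair) were at least 2-fold higher in KO, against 4.01% of all genes measured, and 1 was at least 2-fold lower, against 3.95%. In the anti-PD1 pair, 4 of 17 were higher, against 8.35% of all genes, and 4 lower, against 6.12%. The median log2 KO/WT of the measured members was 0.26 for untreated and 0.07 for anti-PD1 libraries, beside 0.07 and 0.13 over all genes. TMM scaling lowered the median of all genes in the anti-PD1 pair by 0.21 on the log2 scale, which moved no member of this gate over the 2-fold line in either pair.

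Clec1b, the platelet and myeloid receptor for podoplanin, was the only member past 2-fold in the same direction in both pairs of the whole gate. It was at 14.6 CPM (12.5 to 16.9) in KO untreated against 1.72 CPM (1.13 to 2.50) in WT untreated, and at 16.8 CPM (15.2 to 18.5) in KO anti-PD1 against 3.24 CPM (2.81 to 3.72) in WT anti-PD1. Both KO libraries thus lay above both WT libraries, by 8.48-fold (5.63 to 13.2) untreated and 5.17-fold (4.36 to 6.16) after anti-PD1. Clec1b had a UMI in 7.96% of KO untreated cells (6.42 to 9.74) against 1.33% of WT untreated cells (0.869 to 1.94), and in 7.66% of KO anti-PD1 cells (6.80 to 8.59) against 2.63% of WT anti-PD1 cells (2.25 to 3.07), although the KO anti-PD1 cells were the shallower, with a median of 5806.5 UMIs against 9309. The share in T gate cells was 0 of 643 cells in KO untreated, 0.136% in WT untreated, 1.04% in KO anti-PD1 and 0.543% in WT anti-PD1. In C1q-positive cells the folds were 11.0 (6.34 to 20.5) and 5.09 (4.27 to 6.09), with 18.4 CPM in KO untreated against 1.68 CPM in WT untreated and 17.3 CPM in KO anti-PD1 against 3.41 CPM in WT anti-PD1. In C1q-negative cells its counts were too few for comparison in either pair.

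Divided by C1q, 2 of 16 measured members were at least 2-fold higher in KO in C1q-positive cells of the untreated pair (3.18% of genes) and 1 lower (3.46%), with 4 of 17 higher (8.13%) and 4 lower (6.03%) in the anti-PD1 pair. In C1q-negative cells 2 of 12 were higher (4.84%) and 1 lower (4.71%) untreated, and 2 of 12 higher (11.2%) and 4 lower (10.4%) after anti-PD1.

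Clec4d, the activating partner of Clec4e and a gene whose promoter holds the response-element letters, was lower in KO. In C1q-positive cells, where it passed 2-fold in both pairs, it was at 38.6 CPM in KO untreated against 96.1 CPM in WT untreated, and at 49.4 CPM in KO anti-PD1 against 130 CPM in WT anti-PD1. These levels were 2.49-fold (2.18 to 2.84) and 2.64-fold (2.48 to 2.81) lower in KO, and the WT levels lay above the KO levels in both pairs. In C1q-negative cells it was at 93.1 CPM in KO untreated against 91.2 CPM in WT untreated, a fold of 1.02 (0.89 to 1.17), and at 52.3 CPM in KO anti-PD1 against 138 CPM in WT anti-PD1. Clec4e was at 145 CPM in KO untreated against 187 CPM in WT untreated over the whole gate, and at 53.5 CPM in KO anti-PD1 against 145 CPM in WT anti-PD1, which was 2.72-fold (2.57 to 2.89) lower.

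Clec10a was higher in KO, and in C1q-negative cells it was the member past 2-fold in both pairs. There it was at 91.5 CPM in KO untreated against 43.6 CPM in WT untreated, and at 92.4 CPM in KO anti-PD1 against 13 CPM in WT anti-PD1. The KO levels were 2.10-fold (1.79 to 2.46) and 7.12-fold (5.19 to 9.76) higher. The untreated fold was below 2 under 6 of the 14 processing alternatives, with a lowest log2 of 0.68 when only cells with at most 1 marker of any other gate are kept. Over the whole gate Clec10a was at 50.1 CPM in KO untreated against 30.1 CPM in WT untreated, and at 27.8 CPM in KO anti-PD1 against 9.23 CPM in WT anti-PD1. The cDC2 markers moved with Clec10a in C1q-negative cells: they summed to 406 CPM in KO untreated against 216 CPM in WT untreated, and to 236 CPM in KO anti-PD1 against 133 CPM in WT anti-PD1. Over the whole gate they summed to 282 CPM in KO untreated against 167 CPM in WT untreated, and to 103 CPM in KO anti-PD1 against 104 CPM in WT anti-PD1. Their part in the difference was not tested.

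Clec2d, whose promoter holds the response-element core, was lower in KO in both pairs of the whole monocyte/macrophage gate. It was at 71.5 CPM in KO untreated against 154 CPM in WT untreated, 2.15-fold (1.99 to 2.33) lower, and at 83.4 CPM in KO anti-PD1 against 122 CPM in WT anti-PD1, a fold of 0.68 (0.65 to 0.72). The same side was seen in the untreated pair in C1q-positive cells (69.5 CPM in KO against 132 CPM in WT), C1q-negative cells (76.6 against 178 CPM), microglia (51.0 against 89.0 CPM), pDC (53.9 against 118 CPM), cDC2 (85.8 against 127 CPM) and neutrophils (66.5 against 137 CPM). The untreated log2 was smaller in migratory dendritic cells (-0.14), mast cells and basophils (-0.25) and NK cells (-0.43). In T cells Clec2d was at 82.4 CPM in KO untreated against 87.0 CPM in WT untreated, with an interval of the fold from 0.86 to 1.04. In the anti-PD1 pair its log2 was -0.55 in C1q-positive cells, -0.15 in C1q-negative cells, -0.06 in microglia and 0.02 in T cells. Clec4b1, the third gene with the core, went the other way, with 6.10 CPM in KO untreated against 5.03 CPM in WT untreated and 5.56 CPM in KO anti-PD1 against 1.61 CPM in WT anti-PD1, so the 3 genes did not share a direction.

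Of the Clec4a receptors, Clec4a2 passed 2-fold in the untreated pair, Clec4a1 and Clec4a3 lay between 1 and 2-fold higher, and Clec4a4 had too few UMIs to be measured. Clec4a2 was at 181 CPM in KO untreated against 76.1 CPM in WT untreated, 2.38-fold (2.22 to 2.56) higher, and at 74.2 CPM in KO anti-PD1 against 39.3 CPM in WT anti-PD1, 1.89-fold (1.78 to 2.01) higher. Clec4a3 was at 276 CPM in KO untreated against 194 CPM in WT untreated, and at 135 CPM in KO anti-PD1 against 98.9 CPM in WT anti-PD1, folds of 1.42 (1.36 to 1.5) and 1.37 (1.31 to 1.43). Clec4a1 was at 238 CPM in KO untreated against 146 CPM in WT untreated, but at 84.2 CPM in KO anti-PD1 against 80.2 CPM in WT anti-PD1, a log2 of 0.07 that becomes -0.16 with TMM scaling.

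Clec4n took opposite sides in the 2 pairs, and Clec5a did so over the whole gate only. Clec4n was at 210 CPM in KO untreated against 119 CPM in WT untreated, 1.77-fold (1.66 to 1.88) higher, and at 132 CPM in KO anti-PD1 against 361 CPM in WT anti-PD1, 2.74-fold (2.64 to 2.84) lower. Clec5a was at 65.7 CPM in KO untreated against 55.9 CPM in WT untreated, and at 34.6 CPM in KO anti-PD1 against 101 CPM in WT anti-PD1, 2.93-fold (2.72 to 3.15) lower. The untreated fold of Clec5a was 1.09 (0.97 to 1.22) in C1q-positive and 1.00 (0.81 to 1.23) in C1q-negative cells, and its log2 over the whole gate was -0.21 with cells thinned to 1000 UMIs, against 0.23 as reported. WT anti-PD1 thus held the highest Clec4n and Clec5a of the 4 libraries and KO anti-PD1 the lowest Clec5a. With 1 library per group, the contrast of one pair with the other was not tested.

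In the anti-PD1 pair Clec9a and Clec4b1 were also past 2-fold, with Clec9a at 20.9 CPM in KO against 7.44 CPM in WT, 2.81-fold (2.47 to 3.19) higher, and Clec4b1 3.45-fold (2.64 to 4.51) higher. The remaining members of the gate, Clec12a, Clec16a, Clec2i, Clec2g and Clec1a, lay between log2 -0.31 and 0.45 in both pairs.

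**Figure D3:**
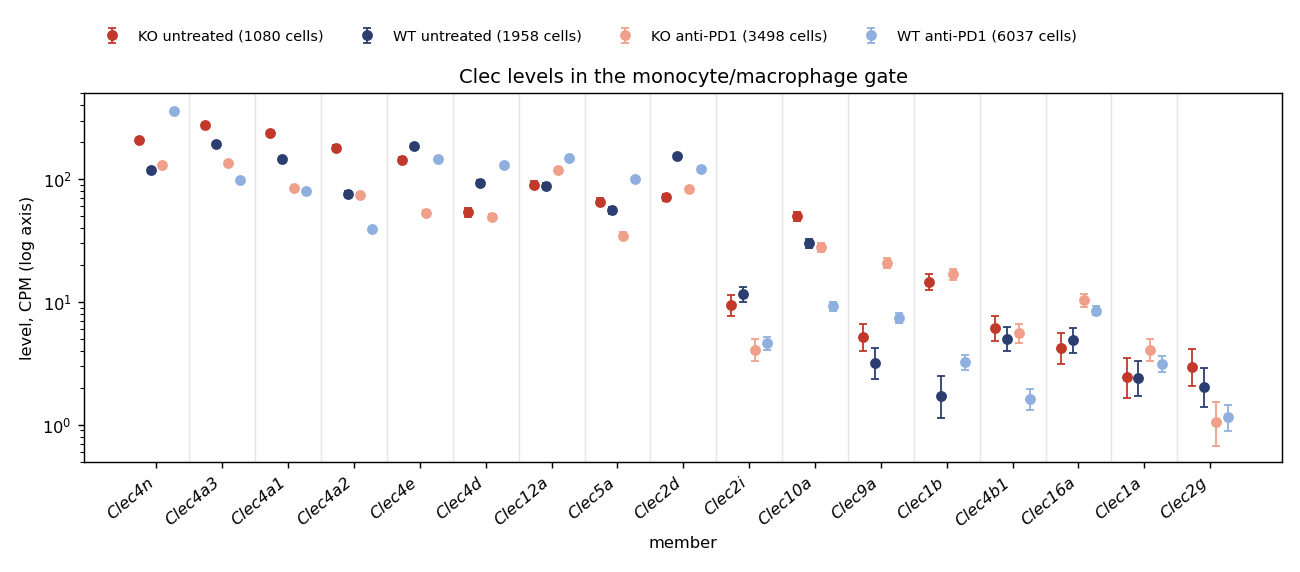
Level in CPM (log axis) of the 17 members measured in both pairs of the monocyte/macrophage gate, with 1 point per library and bars for exact counting intervals. For Clec1b both KO points lie above both WT points, whereas for Clec4n the KO point is above WT in the untreated pair and below it in the anti-PD1 pair.

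**Figure D4:**
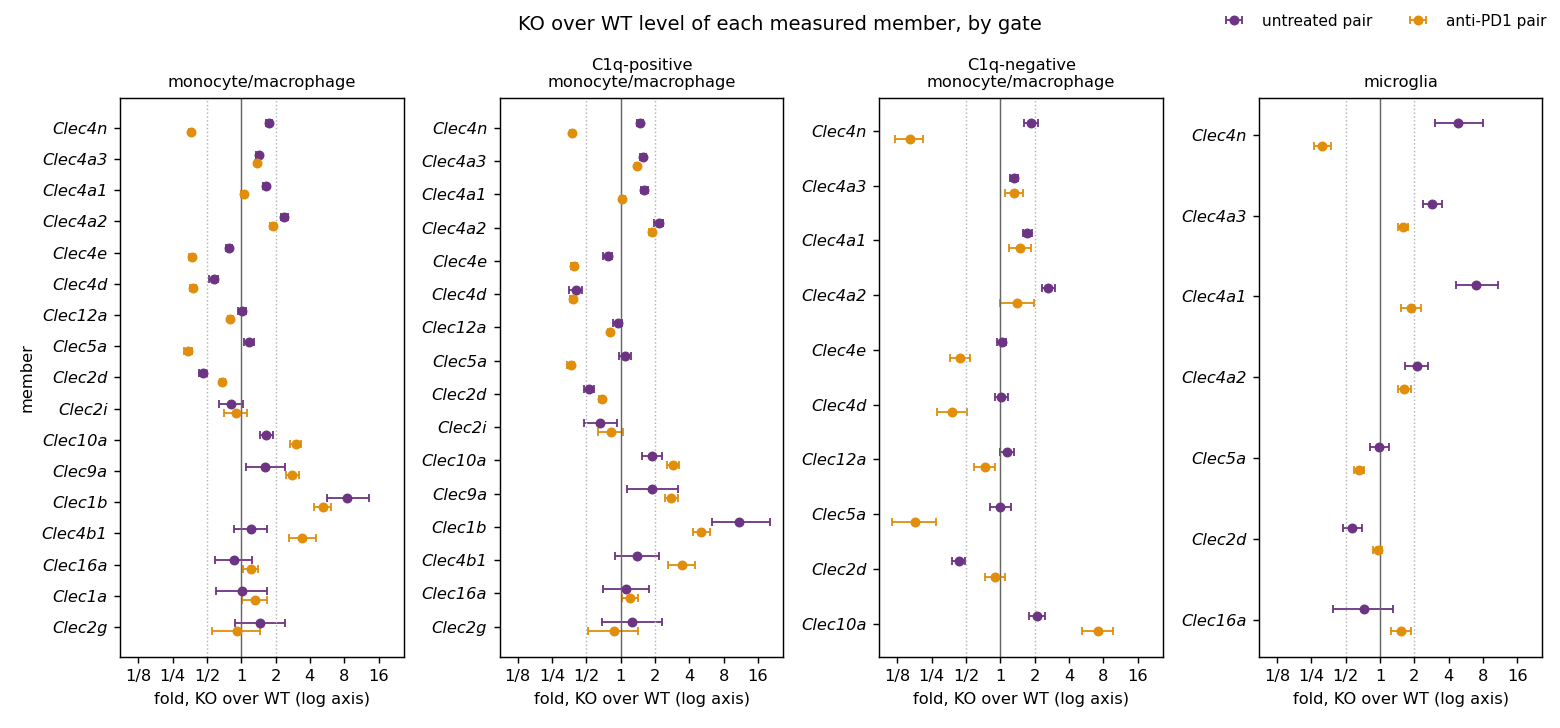
Fold of KO over WT (log axis) with counting intervals for members measured in both pairs, in the whole monocyte/macrophage gate, its C1q-positive and C1q-negative cells, and the microglia gate, with dotted lines at 2-fold. Clec1b lies right of 2 in both pairs, Clec4d left of 0.5 in both pairs in C1q-positive cells, and Clec4n on opposite sides in the 4 panels.

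In microglia the untreated pair stood out. Of 7 measured members 4 were at least 2-fold higher in KO, against 1.75% of all genes measured, and 0 were at least 2-fold lower, against 2.42%. Clec4a3 was at 112 CPM in KO untreated against 38.9 CPM in WT untreated, 2.87-fold (2.37 to 3.48) higher, and was the highest member of KO untreated microglia. Clec4a1 was at 48.2 CPM in KO against 6.94 CPM in WT, 6.94-fold (4.61 to 10.8) higher, and Clec4a2 at 63.1 CPM against 30.0 CPM, 2.10-fold (1.67 to 2.66) higher. Clec4n was at 27.7 CPM in KO against 5.70 CPM in WT, 4.86-fold (3.04 to 8.07) higher.

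Monocyte/macrophage markers were also present in the microglia gate. Markers of the monocyte/macrophage gate summed to 548 CPM in KO untreated microglia against 331 CPM in WT untreated microglia, beside 6437 and 6573 CPM in the monocyte/macrophage gates themselves. Clec4e, low in microglia of every library, was at 0.957 CPM in KO against 3.97 CPM in WT, from 3 and 16 UMIs. Only 21 KO and 37 WT cells of the untreated microglia gates had at most 1 marker of any other gate, so the comparison could not be repeated on them, and the part of mixed cells in the result was not tested. Microglia markers summed to 4107 CPM in KO untreated and 4887 CPM in WT untreated.

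In the anti-PD1 pair 1 of 14 measured members was at least 2-fold higher in KO microglia, against 8.16% of all genes, and 1 at least 2-fold lower, against 4.27%. Clec4a3 was at 66.7 CPM in KO anti-PD1 against 41.9 CPM in WT anti-PD1. Clec4a2 was at 36.3 against 22.3 CPM and Clec4a1 at 18.6 against 9.97 CPM, with folds of 1.59 to 1.87 for these members. T cells of these libraries held more Clec4a1 than microglia did, at 21.9 CPM in KO and 28.8 CPM in WT. Clec4n had the opposite side from the untreated pair, at 11.2 CPM in KO anti-PD1 against 35.8 CPM in WT anti-PD1, 3.20-fold (2.71 to 3.80) lower. It was the only member past 2-fold in opposite directions in the 2 pairs, and T cells of the anti-PD1 libraries held more of it than microglia did, with 26.8 CPM in KO and 91.0 CPM in WT. Clec10a was the member past 2-fold higher, at 3.81 CPM in KO anti-PD1 against 1.05 CPM in WT anti-PD1, again below the T cell levels of 21.2 CPM and 7.65 CPM.

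Clec5a and Clec2d were the leading members of WT microglia. Clec5a was at 56.8 CPM in KO untreated against 57.3 CPM in WT untreated, with a fold interval of 0.81 to 1.21, and at 39.2 CPM in KO anti-PD1 against 60.3 CPM in WT anti-PD1. Clec2d was at 51.0 CPM in KO untreated against 89.0 CPM in WT untreated, and at 61.7 CPM in KO anti-PD1 against 64.4 CPM in WT anti-PD1.

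**Figure D5:**
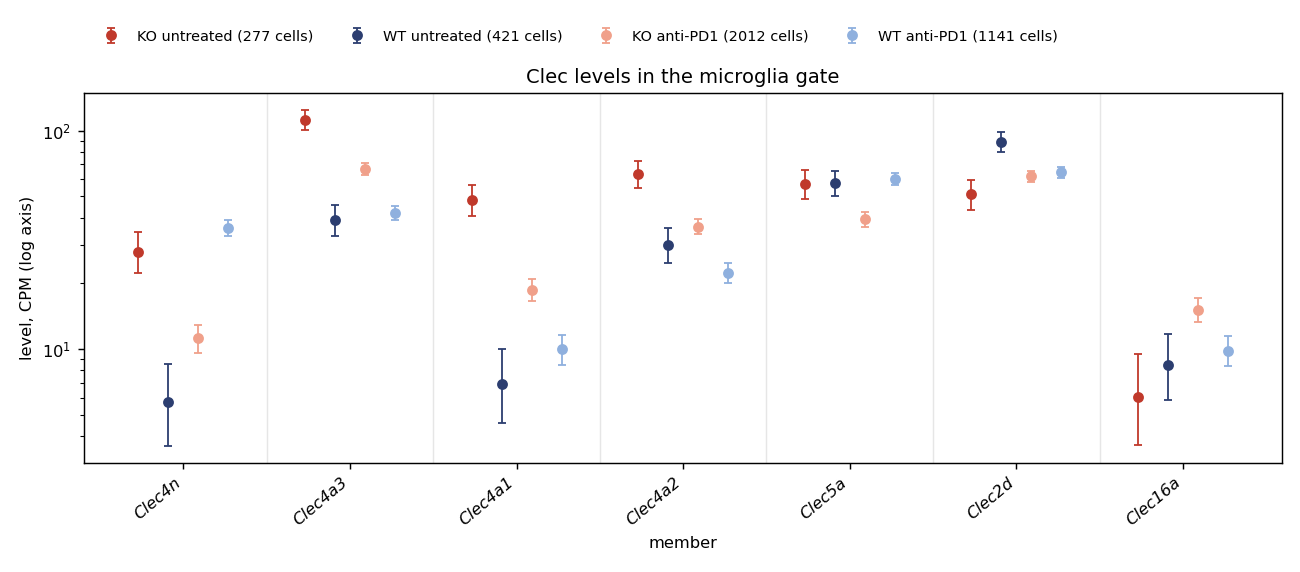
Level in CPM (log axis) of the 7 members measured in both pairs of the microglia gate, with 1 point per library and bars for exact counting intervals. Clec4a3, Clec4a1 and Clec4a2 are higher in KO in both pairs, and Clec4n is higher in KO in the untreated pair and lower in the anti-PD1 pair. The anti-PD1 points of Clec4a1 and Clec4n lie below the T cell levels of the same libraries and are not read as expression.

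Among dendritic cells only the untreated pair could be compared. In cDC2, 4 of 10 measured members were at least 2-fold higher in KO, against 3.55% of all genes, and 1 at least 2-fold lower, against 3.31%. Clec10a was at 369 CPM in KO untreated against 123 CPM in WT untreated, 3.0-fold (2.42 to 3.77) higher. Clec4n was at 180 CPM in KO against 80.7 CPM in WT, 2.23-fold (1.70 to 2.98) higher, and Clec4a1 at 54.7 against 15.4 CPM from 88 and 12 UMIs. Clec4a2 had 44 UMIs in KO and 6 in WT, and its direction depends on how cells are weighted. Clec5a was at 13.7 CPM in KO against 41.0 CPM in WT. The cDC2 markers summed to 2504 CPM in KO untreated and 1394 CPM in WT untreated, and the monocyte/macrophage markers to 1265 and 2859 CPM, so the gate held different mixtures in the 2 libraries, whose part in these differences was not tested.

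In pDC, 0 of 5 members were at least 2-fold higher in KO, against 2.45% of genes, and 2 were lower, against 4.14%: Clec2d, and Clec9a at 9.80 CPM in KO against 70.8 CPM in WT, 7.23-fold (3.13 to 20.5) lower from 6 and 60 UMIs. Clec9a had a UMI in 7.58% of 66 KO pDC (2.51 to 16.8) and in 36.6% of 82 WT pDC (26.2 to 48.0), at medians of 9971.5 and 10505.5 UMIs per cell. In neutrophils 0 of 7 were higher, against 3.61% of genes, and 2 lower, against 4.46%, Clec2d and Clec5a. The Clec2d call was lost under 5 alternatives (log2 up to -0.52) and the Clec5a call under 2 (up to -0.97). Clec5a was at 87.3 CPM in KO against 175 CPM in WT from 21 and 50 UMIs. No member was at least 2-fold different in mast cells and basophils (3 measured, against 1.93% of genes higher and 4.68% lower in KO), migratory dendritic cells (2 measured, against 2.61% and 4.61%) or NK cells (2 measured, against 1.83% and 3.9%). In T cells of the untreated pair 0 of 11 were higher, against 0.905%, and 1 was lower, against 1.39%: Clec12a, at 5.28 CPM in KO against 13.9 CPM in WT. Monocyte/macrophage markers summed to 424 CPM in the KO untreated T gate and 970 CPM in the WT untreated one. In cells with at most 1 marker of any other gate the log2 of Clec12a was -0.07, against -1.31 as reported. In T cells of the anti-PD1 pair 1 of 12 was higher, against 5.16%, and 4 were lower, against 5.54%, and these 5, Clec10a, Clec5a, Clec4n, Clec4d and Clec4e, were on the same side as in the monocyte/macrophage cells of that pair. Under the marker limit their log2 was -0.01, -0.01, -0.29, -1.35 and -1.1 in that order. All values under this limit came from fewer than 50 UMIs, and the part of mixed cells was not tested.

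Levels of the anti-PD1 libraries stand beside the untreated ones with no attribution, because day, sort, library make-up, count software and treatment changed together. Untreated counts came from Cell Ranger 3.1.0 and anti-PD1 counts from 7.2.0, with 31053 and 32285 genes listed. Over 10% mitochondrial counts were found in 24.2% of KO and 21.0% of WT untreated barcodes, against 3.29% and 0.693% of the KO and WT anti-PD1 ones. In the monocyte/macrophage gate Clec4a1, Clec4a2, Clec4a3, Clec4e, Clec10a and Clec2i were lower in the anti-PD1 library of each genotype, and Clec9a, Clec12a and Clec16a higher, with intervals apart. Clec4b1 and Clec2g were also lower, and Clec1a and Clec1b higher, with intervals that overlapped in at least 1 genotype. Clec4a3 was at 135 CPM in KO anti-PD1 against 276 CPM in KO untreated, and at 98.9 CPM in WT anti-PD1 against 194 CPM in WT untreated. Clec9a was at 20.9 CPM in KO anti-PD1 against 5.17 CPM in KO untreated, and at 7.44 CPM in WT anti-PD1 against 3.18 CPM in WT untreated. The genotypes went apart for Clec4n, with 132 CPM in KO anti-PD1 against 210 CPM in KO untreated, but 361 CPM in WT anti-PD1 against 119 CPM in WT untreated. They also did for Clec5a, Clec4d and Clec2d, given here as anti-PD1 against untreated. Clec5a was at 34.6 against 65.7 CPM in KO and 101 against 55.9 CPM in WT. Clec4d was at 49.5 against 53.8 CPM in KO and 131 against 93.8 CPM in WT. Clec2d went the other way, at 83.4 against 71.5 CPM in KO and 122 against 154 CPM in WT.

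The genes through which these receptors act are set beside the 4.01% of all genes higher and 3.95% lower in KO in the untreated pair of this gate, and the 8.35% and 6.12% in the anti-PD1 pair. Of 16 signalling and adaptor genes, among them Syk, Card9, Fcer1g and Tyrobp, all were measured and 0 passed 2-fold in the untreated pair, while in the anti-PD1 pair 1 was higher in KO, the adaptor Hcst, and 1 lower, Card9. Card9, which links Syk to NF-kB, was at 6.99 CPM in KO anti-PD1 against 23.9 CPM in WT anti-PD1, and both genes were named after their values were seen. Of 3 inhibitory phosphatases, Ptpn6, Ptpn11 and Inpp5d, 0 passed in either pair. Medians were log2 -0.05 and -0.01 for the signalling list and 0.19 and 0.09 for the phosphatases, beside 0.07 and 0.13 for all genes. Of 7 ligands and partner receptors 4 were measured, with 2 higher in KO among untreated libraries and 1 among anti-PD1 libraries. Klrb1b, the receptor of Clec2d, was at 77.7 CPM in KO untreated against 22.7 CPM in WT untreated and was likewise named after its values were seen. Klrb1c was past 2-fold in both pairs, at 9.15 CPM in KO untreated against 2.80 CPM in WT untreated and 2.05 CPM in KO anti-PD1 against 0.178 CPM in WT anti-PD1. It is also an NK gate marker, and the NK markers summed to 19.4 CPM in this gate in KO untreated and 15.4 CPM in WT untreated.

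Other genes with a C-type lectin domain were counted against the same shares of all genes. Of 22, 12 were measured in the untreated pair, with 5 higher and 3 lower in KO, and 14 in the anti-PD1 pair, with 7 higher and 2 lower, at list medians of 0.67 and 0.89. Mrc1, the macrophage mannose receptor, was at 1175 CPM in KO untreated against 71.5 CPM in WT untreated, and at 561 CPM in KO anti-PD1 against 62.3 CPM in WT anti-PD1, folds of 16.4 (15.5 to 17.5) and 9.01 (8.69 to 9.34). Mgl2, the paralog of Clec10a, was at 96.8 CPM in KO untreated against 34.1 CPM in WT untreated, and at 72.8 CPM in KO anti-PD1 against 18.2 CPM in WT anti-PD1. Olr1, a receptor for oxidised lipoprotein, was 2.17-fold and 3.02-fold higher in KO, and Cd69, an early activation marker, 2.12-fold and 3.89-fold lower. In microglia Mrc1 was at 172 CPM in KO untreated against 8.68 CPM in WT untreated, and at 68.5 CPM in KO anti-PD1 against 13.8 CPM in WT anti-PD1. Mgl2 in microglia was at 17.9 CPM in KO untreated against 2.73 CPM in WT untreated, and at 8.35 CPM in KO anti-PD1 against 2.91 CPM in WT anti-PD1. The lists were chosen with results of these data known, and their counts are descriptions.

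Clec4d had a UMI more often in cells with Clec4e than in cells without it. After each monocyte/macrophage cell was thinned to 1000 UMIs, Clec4d had a UMI in 14.2% of KO untreated cells with Clec4e (8.76 to 21.3) and 4.19% of those without it (3.0 to 5.69). In WT untreated the shares were 16.2% (11.9 to 21.3) and 6.98% (5.81 to 8.30), and in WT anti-PD1 17.1% (14.5 to 20.0) and 10.5% (9.71 to 11.4). In KO anti-PD1 they were 9.04% (5.26 to 14.3) and 4.73% (4.02 to 5.52), with intervals that overlap. Without thinning the shares were 46.4% and 12.9% in KO untreated, 49.9% and 19.5% in WT untreated, 35.0% and 16.3% in KO anti-PD1, and 60.6% and 41.4% in WT anti-PD1. In thinned neutrophils the shares were 71.4% and 52.5% in KO untreated and 67.6% and 47.1% in WT untreated, again with overlapping intervals. Thinning left out 16 KO untreated, 8 WT untreated, 84 KO anti-PD1 and 26 WT anti-PD1 cells of the monocyte/macrophage gates.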

How the data were processed

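Single-cell RNA was measured in 4 libraries of CD45.2+ cells from mouse brains. The deposited matrices hold UMI counts per gene and cell; per the file headers the untreated ones come from Cell Ranger 3.1.0 and the anti-PD1 ones from 7.2.0. The build is GRCm38 (mm10), per the submitters' processing notes. Cells were kept from 200 detected genes upward, provided that mitochondrial genes gave no more than 10% of their counts. Doublets were not removed in the main values, since the automatic Scrublet threshold marked 0 to 2 cells a library; removing the top-scored cells (0.8% per 1000 barcodes) was an alternative. Markers were counted as detected or not, counts were summed per gate and library, and levels are CPM of the gate total. Folds are ratios of summed counts with exact conditional binomial 95% intervals, and log2 folds use a pseudocount of 0.5 CPM. A member counts as past 2-fold only by the size of its log2 fold at 50 or more UMIs. These UMIs are summed over the pair, for members and all genes alike, so a gene can be measured through 1 library only. Poisson and Clopper-Pearson intervals cover counting error only. The ratio step was tested on simulated data. The lists of pathway genes hold signalling genes, phosphatases, ligands and partner receptors, and other genes with a C-type lectin domain. Members and lists were chosen with earlier results of these data known. Full values were given for members past 2-fold in the same or in opposite directions in both pairs and for the highest member of a gate, up to 5 genes were named per pathway list (1 gene that the rule names is not reported here), and other members named were chosen after their values were seen. Gates with fewer than 50 cells in either library of a pair were not compared. Software was Python 3.11.15 with numpy 2.4.6, pandas 2.3.3, scipy 1.17.1 and scanpy 1.11.5, and R 4.3.3 with edgeR 4.0.16 (TMM) and DESeq2 1.42.0 (size factors), both used only for scaling alternatives.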

Additional observations from a re-analysis of the deposited data

Results flagged for a closer look

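In the whole monocyte/macrophage gate Clec4n and Clec5a had KO/WT values on opposite sides in the 2 pairs, with counting intervals on opposite sides of equality. There the log2 KO/WT of Clec5a was -1.54 in the anti-PD1 pair and 0.23 in the untreated pair, and that of Clec4n -1.45 in the anti-PD1 pair and 0.82 in the untreated pair. Clec4n was at -1.42 in the anti-PD1 pair and 0.56 in the untreated pair in C1q-positive cells. It was at -2.63 and 0.88 in C1q-negative cells, and at -1.64 and 2.19 in microglia. T cells of the anti-PD1 libraries held more Clec4n than microglia did, so its value in anti-PD1 microglia is not read as expression. Clec5a did not keep this in the C1q classes, with -1.45 in the anti-PD1 pair and 0.12 in the untreated pair in C1q-positive cells, where the untreated interval included equality, and its untreated value over the whole gate was -0.21 with thinned cells. With 1 library per group, the contrast of one pair with the other was not tested. Clec2f, a transcribed pseudogene listed only in the anti-PD1 libraries, had 7 UMIs in KO anti-PD1 and 14 UMIs in WT anti-PD1.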

How the results depend on the processing

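No paired analysis was possible because each group has 1 library, and for the same reason no library could be left out of a group. Of 697 member log2 values under alternatives, 665 kept their direction and side of 2-fold, 31 kept their direction and were no longer past 2-fold, and 1 reversed, Clec4a2 in untreated cDC2, at -0.39 with equal weight per cell. The settings of 10 UMIs and of no minimum changed only which members count as measured, so the 52 values under each could not move. Except with thinning, a value was left out where a setting took the member under 50 UMIs. It was also left out where the gate fell under 50 cells. Of 126 counts, 110 stayed within 1.5 times. Of 68 levels, 63 stayed within counting error, and 5 moved with top-scored doublets removed: Clec4n in WT anti-PD1 monocytes and macrophages and their C1q-positive cells, Clec2d in KO anti-PD1 T cells and WT anti-PD1 microglia, and Clec4a3 in KO anti-PD1 microglia. The number of members higher in KO untreated microglia was 1 with cells thinned to 1000 UMIs, against 4 as reported, because fewer members then reached 50 UMIs (the log2 of the 4 was still at least 1.54). The number lower there was 1 at a minimum of 10 UMIs and 1 with no minimum, against 0. In untreated monocytes and macrophages 4 members were higher with equal weight per cell, against 2. In anti-PD1 microglia the number higher, 1 as reported, was 2 with equal weight per cell, 2 with thinning and 0 with a pseudocount of 5 CPM. The number lower there, 1 as reported, was 2 at 2 or more markers, 4 at 4 or more, 2 with top-scored doublets removed, 3 with TMM and 3 with DESeq2 size factors (TMM adds Clec4e at -1.22 and Clec12a at -1.21), 0 with thinning and 0 with at most 1 marker of any other list. With TMM, 0 signalling genes were higher and 1 phosphatase lower in anti-PD1 monocytes and macrophages, against 1 and 0. The causes were not tested. The limit on other-gate markers and the intron-length correction were chosen after seeing the data, and the marker limit left too few untreated microglia. Relative to CPM, TMM moved the median of all genes by -0.21 in anti-PD1 monocytes and macrophages and -0.25 in anti-PD1 microglia.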
